A study of Ictalurus punctatus and Ictalurus punctatus x Ictalurus furcatus with 18 samples.

Results

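The heat response of Delta Select channel catfish (Ictalurus punctatus) was read from 6 of the 18 liver libraries of a growth trial. Of these, 3 libraries (H3, H5 and H9) came from tanks cycling daily between 32 and 36 °C, here the high regime. The other 3 (L3, L5 and L8) came from tanks cycling between 27 and 31 °C, the low regime. All fish were fingerlings kept in their regime for 6 weeks, and all carried the label Delta Select strain, channel type (DSxDS). Each library was a pool of liver RNA from 3 fish of 1 tank. The spread between libraries therefore mixes that between tanks with the fish drawn and the library preparation. The remaining libraries, 6 from Red River channel catfish (RRxRR) and 6 from the Delta Select hybrid, were split in the same way over the 2 regimes. The hybrid is a cross of Ictalurus punctatus with Ictalurus furcatus.

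At the low regime, 2 of the Delta Select libraries went against their label. On 2884 transcripts over 4-fold higher in hybrid than in Red River fish and at 1 CPM (counts per 1000000 reads) or more in hybrids, each library was placed between the Red River mean, at 0, and the hybrid mean, at 1, on the scale of log2(CPM + 0.1). The median place was 0.0387, 0.0359 and 0.0433 in H3, H5 and H9, against 0.846, 0.546 and 0.0658 in L3, L5 and L8. L3 and L5 thus lay towards the hybrid libraries, at 0.985 to 1.02, and L8 lay with the high-regime tanks. The summed level of these transcripts was still higher in L8, at 11870 CPM, than in H3, H5 and H9, at 6492 to 7219 CPM. Why these transcripts were higher in L3 and L5 than in the other Delta Select libraries was not tested.

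The comparison was therefore restricted to transcripts at a similar mean level over both regimes in both other types. A transcript was selected on its mean CPM over the 6 hybrid and over the 6 Red River libraries. The smaller mean had to be at least 0.8 of the larger. Each mean covers both regimes, so a selected transcript can still differ between the types at the low regime. No Delta Select channel library enters that choice. Of 144746 transcripts, 42830 met it and are called balanced here. A filter on low counts left 35593 of these to be tested, 36.8% of the 96799 tested in all, and removed 7237. Reads on balanced transcripts were 46.9% to 49.3% of each Delta Select library, and total reads on transcripts were 44384499 to 76146359. Each change was then set against L8 alone, with L3 and L5 left out of the fit. Of the low-regime Delta Select libraries, L8 was nearest to the high-regime ones in the transcripts higher in hybrids.

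Fish do not regulate their body temperature, so the liver works at the temperature of the water. Lasting warmth is known to change liver metabolism, protein folding and protein turnover in fishes, and genes of the heat shock response, such as those of chaperones, are among the best known to respond. The deposited identifiers name assembled transcripts, not genes, and 0 of them matched the channel catfish gene table. Which of the transcripts below belong to such genes was therefore not determined, nor could the liver label be checked against marker genes. In bulk RNA, fewer cells of a type and less RNA per cell cannot be told apart.

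The share of calls depended on the ratio between the other types. Among transcripts over 4-fold higher in hybrid than in Red River fish, 42.8% were called lower at the high regime with all 6 Delta Select libraries. Against L8 alone, 0.978% of the same transcripts were called lower. At the other end, among transcripts between 0.25 and 0.8 of the Red River level in hybrids, 10.5% were called higher with all libraries and 2.06% against L8 alone. The fit against L8 alone has fewer libraries, and transcripts called higher in the balanced class were also fewer in it, at 1.49% beside 5.08% with all libraries. The median log2 fold change, which does not depend on calls, was 0.25 with all libraries and 0.09 against L8 alone in the class from 0.25 to 0.8, and -1.59 and 0.02 in the class over 4-fold. Among balanced transcripts the median log2 fold change was 0.025 with all libraries and 0.024 against L8 alone. Over all tested transcripts it was -0.006 and 0.044. The scaling of the libraries draws such medians towards no change, so they do not test the restriction. The lean was reduced inside the balanced window but not removed. With all libraries, 8.16% of transcripts at a hybrid to Red River ratio of 0.8 to 0.85 were called higher and 1.61% lower. In the topmost band inside the window, from a ratio of 1.2, 3.5% were called higher and 5.07% lower. Just outside the window, at 0.75 to 0.8, 8.28% were called higher, and in the band just above it, up to 1.3, 6.36% were called lower. Calls made in both fits leaned as well at the lower edge, with 88 higher (1.84%) and 30 lower (0.626%) at a ratio of 0.8 to 0.85, while from 1.2 to the upper edge 21 were higher (0.845%) and 17 lower (0.684%).

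**Figure D1:**
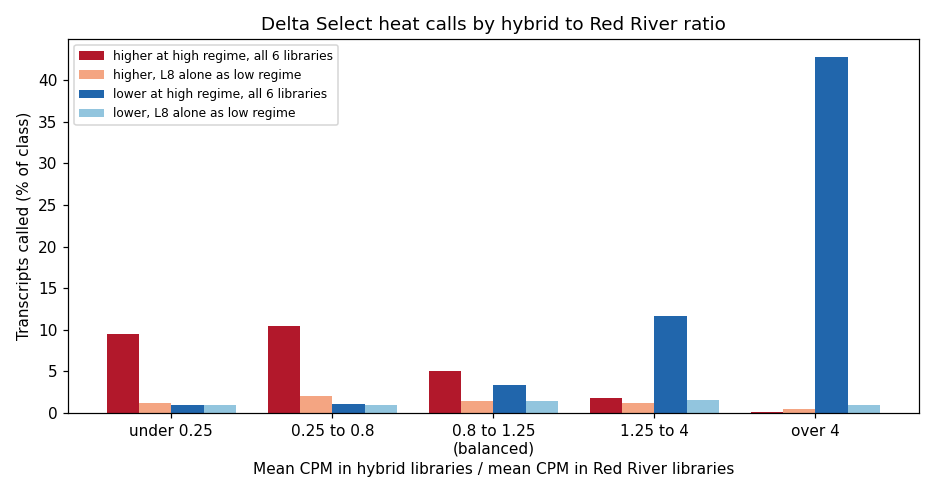
Share of tested transcripts (%, vertical axis) called higher (red) or lower (blue) in Delta Select fish at the high regime, by the ratio of mean CPM in hybrid to Red River libraries (horizontal axis). Dark bars use all 6 Delta Select libraries and pale bars use L8 alone at the low regime. The dark blue bar stands at 42.8% for transcripts over 4-fold higher in hybrids, beside a pale blue bar of 0.978%.

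Over the balanced transcripts the libraries separated first by temperature. In a principal component analysis of log2 CPM, the first component held 24.8% of the variance. Delta Select libraries scored 35.4 to 47.24 on it at the high regime and -34.92 to -29.49 at the low regime. Over all types, every high-regime library lay at 28.89 or above and every low-regime library at -29.49 or below. The next component, with 9.36% of the variance, set Delta Select libraries apart from the other types. H3, H5 and H9 scored 24.89 to 35.28 on it, and L8 and L5 scored 51.25 and 22.62. L3 scored -15.49, against its label. At the same regime, hybrid libraries scored -27.66 to -4.963 and Red River libraries -3.436 to 2.1. L3 thus lay within the range of the hybrids and below the Red River libraries of that regime. Red River libraries at the high regime scored -20.69 to -9.169, a range that also holds L3.

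L8 lay at the far end of the Delta Select libraries and also stood apart in single transcripts. Of 21392 balanced transcripts with a mean of at least 1 CPM, L8 was over 2-fold above each of the other 17 libraries in 23, and no other library was so in more than 9. It was over 2-fold below all others in 14, and H9 and L6 in 15 and 14. Between tanks of the high regime, the standard deviation of log2 differences over these transcripts was 0.314 for H3 and H5, 0.44 for H3 and H9, and 0.42 for H5 and H9. At the low regime it was 0.39 for L3 and L5, 0.493 for L3 and L8, and 0.44 for L5 and L8. On transcripts that were not balanced it reached 1.1 for L3 and L8 and 0.829 for L5 and L8, against 0.473 to 0.64 between the high-regime tanks.

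**Figure D2:**
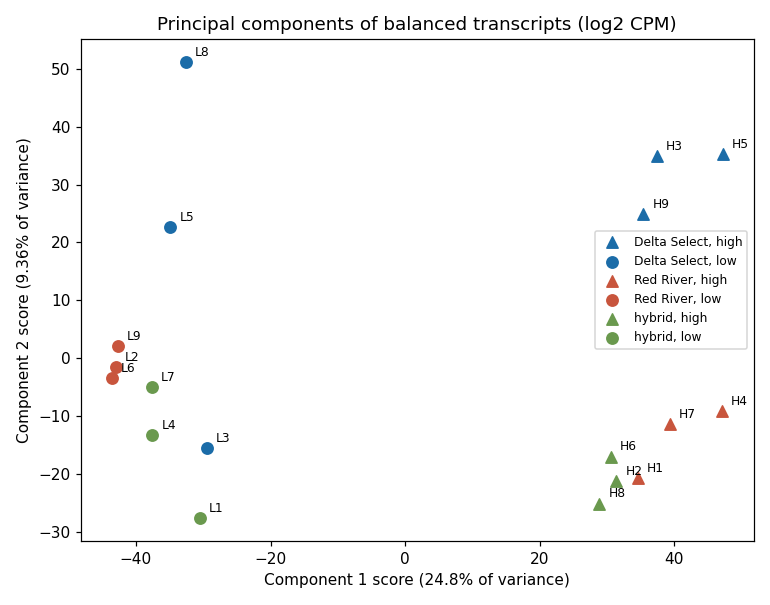
Scores of the 18 libraries on the first and second principal component of log2 CPM over 35593 balanced transcripts, with triangles for the high and circles for the low regime. Blue points are Delta Select, red Red River and green hybrid libraries. The horizontal axis separates the regimes, and on the vertical axis L3 lies at -15.49 while the other Delta Select libraries lie between 22.62 and 51.25.

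With all 6 Delta Select libraries, 1809 balanced transcripts rose at the high regime (5.08%, against 5.66% of all tested). A further 1216 fell (3.42%, against 7.19% of all tested). The test was edgeR's quasi-likelihood test with Benjamini-Hochberg adjustment over all 96799 transcripts, and called means an adjusted p below 0.05. Against L8 alone, 529 balanced transcripts rose (1.49%, against 1.52% of all tested) and 512 fell (1.44%, against 1.3% of all tested). Both fits called 426 rises (1.2%, against 1.2% of all tested) and 325 falls (0.913%, against 0.856% of all tested). Apart from the falls with all libraries, these shares in the balanced set lay near those of all tested transcripts. The counts depended on single libraries. With all other libraries, 1038 rises were called without H3, 893 without H5 and 1054 without L3, and 713 falls without H5 and 742 without L3. Without L5 there were 1269 rises and 884 falls. Without L8, when L3 and L5 made up the low-regime group, there were 1992 rises and 1202 falls. For calls in both fits, the rises were 275 without H3 and 208 without H5, and the falls 203 without H5. With only the Delta Select libraries fitted, both fits called 71 rises and 33 falls.

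Rises reached larger sizes than falls among the transcripts called in both fits. The 426 rises had a median log2 fold change of 1.22 (quartiles 0.91 and 1.65) and reached 6.25. The 325 falls had a median of -0.83 (quartiles -1.13 and -0.69) and reached -2.97. The rises over 4-fold numbered 75 and the falls 8. At over 8-fold there were 19 rises and 0 falls. Against L8 alone the same transcripts had medians of 1.39 and -1.04, with 102 rises and 19 falls over 4-fold and 35 and 2 over 8-fold. These sizes describe transcripts chosen for being called, and such a choice favours large values. The counts are of assembled transcripts, and several of them may belong to the same gene. The libraries that came closest to the other regime differed. H9 was the lowest of the high-regime tanks in 266 of the 426 rises, H3 in 124 and H5 in 36. L3 was the highest of the low-regime tanks in 253 of them, L5 in 137 and L8 in 36, and the last follows in part from the call against L8.

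**Figure D3:**
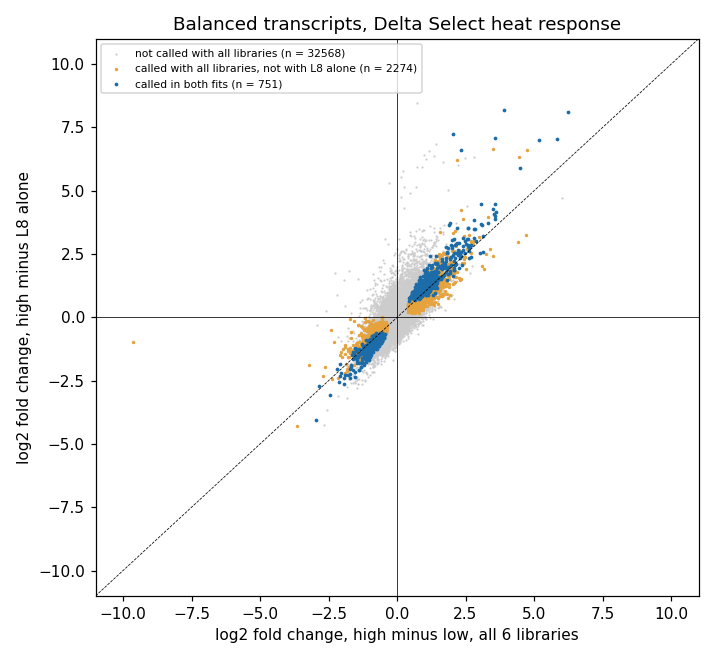
Log2 fold change of 35593 balanced transcripts in Delta Select fish (high minus low regime) with all 6 libraries (horizontal axis) and with L8 alone at the low regime (vertical axis). Blue points (751) were called in both fits, orange points (2274) with all libraries only and grey points in neither or with L8 alone, and the dashed line marks equal values. The blue points reach 6.25 on the horizontal and 8.18 on the vertical axis, and 19 and 35 of the rises exceed 8-fold on these axes. The orange point at -9.64 lies at -0.99 against L8 alone.

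The largest fall with all libraries was set by 1 library. That transcript had 0.4922, 1.053 and 0.521 CPM in H3, H5 and H9, against 1.193, 1635 and 1.35 CPM in L3, L5 and L8. No library of the other types exceeded 1.687 CPM. Its level was high in L5 and near that of the high-regime tanks in L3 and L8, and its log2 fold change of -9.64 (edgeR, adjusted p = 0.0192) became -0.99 against L8 alone (adjusted p = 0.256).

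Among transcripts called in both fits, free of overlap and with a mean log2 CPM of 3 or more, the largest rise was that of k82:923611. The level of k82:923611 was 59.56, 61.46 and 28.19 CPM in H3, H5 and H9, against 7.529, 1.746 and 2.774 CPM in L3, L5 and L8. Every high-regime tank lay above every low-regime tank, with H9 the lowest at the high regime and L3 the highest at the low regime. The means were 49.74 ± 18.7 CPM at the high and 4.016 ± 3.09 CPM at the low regime (SD, n = 3 each). The log2 fold change was 3.63 ± 0.49 (SE; edgeR, adjusted p = 0.000538) and 4.16 ± 0.58 against L8 alone (adjusted p = 0.003).

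The transcript k78:1291265 followed, at 91.96, 87.1 and 43.06 CPM in H3, H5 and H9, against 10.78, 2.752 and 4.959 CPM in L3, L5 and L8. The tanks took the same order at the low regime as for k82:923611, and again did not overlap between regimes. Its log2 fold change was 3.59 ± 0.49 (edgeR, adjusted p = 0.000594), and 3.9 ± 0.65 against L8 alone (adjusted p = 0.00839). Levels of k78:1291265 and of the 4 rises next in size stayed in a near-fixed ratio to k82:923611. For each of these 5, the standard deviation of the log2 ratio over the 18 libraries was under 0.3, a limit set after the values were seen. The log2 fold changes of all 5 lay between 3.51 and 3.59. It was not determined if these identifiers belong to 1 gene, and reads shared between them may have been divided in a way that the sources used here do not give.

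Both transcripts were higher at the high regime in the other types as well. The level of k82:923611 was 83.32 ± 14.9 CPM in Red River fish at the high and 1.559 ± 0.0438 CPM at the low regime. In hybrids it was 69.22 ± 21.6 CPM at the high and 3.382 ± 1.23 CPM at the low regime (SD, n = 3 each). The low-regime mean of k78:1291265 was 1.92 CPM in Red River and 4.734 CPM in hybrid fish. Neither transcript thus met the balanced rule at the low regime alone. The log2 fold change of k82:923611, 3.63 in Delta Select fish, was 5.74 ± 0.55 in Red River fish (edgeR, adjusted p = 2.16e-05). In hybrids it was 4.36 ± 0.51 (edgeR, adjusted p = 0.000274). The Delta Select change minus the Red River change was -2.11 with an adjusted p of 0.273 in edgeR's interaction test, and -1.57 against L8 alone. That difference was not called in either fit.

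The fall of largest size under the same rule was that of k50:2861107. The level of k50:2861107 was 3.648, 2.729 and 4.228 CPM in H3, H5 and H9, against 11.15, 10.7 and 18.41 CPM in L3, L5 and L8. The regimes did not overlap, and L8 lay well above L3 and L5. The means were 3.535 ± 0.756 CPM at the high and 13.42 ± 4.33 CPM at the low regime (SD, n = 3 each), resting on 140 to 289 reads a tank at the high and 521 to 750 at the low regime. The log2 fold change was -1.92 ± 0.26 (edgeR, adjusted p = 0.000177) and -2.38 ± 0.29 against L8 alone (adjusted p = 0.000561). In Red River fish k50:2861107 fell as well, with a log2 fold change of -2.06 ± 0.26 (adjusted p = 5.9e-05). In hybrids the value was -0.9 ± 0.25, which was not called (edgeR, adjusted p = 0.0616). The Delta Select minus hybrid difference, -1.02 ± 0.36, was not called either (edgeR interaction test, adjusted p = 0.273).

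The other named fall, k78:1238917, was an abundant transcript. It stood at 79.31, 56.67 and 80.97 CPM in H3, H5 and H9, against 257.3, 204.2 and 198.2 CPM in L3, L5 and L8. Tanks of a regime lay close together, and the regimes were far apart. The means were 72.32 ± 13.6 CPM at the high and 219.9 ± 32.5 CPM at the low regime (SD, n = 3 each), and the log2 fold change was -1.6 ± 0.19 (edgeR, adjusted p = 4.1e-05; -1.45 ± 0.24 against L8 alone, adjusted p = 0.0031). Red River and hybrid fish gave -1.3 ± 0.19 and -1.31 ± 0.19 (edgeR, adjusted p = 0.000187 and 0.000383). In 6 further balanced transcripts the level stayed in a near-fixed ratio to k78:1238917, and all 6 fell in both fits, with log2 fold changes from -1.59 to -1.14. Their falls follow from that choice, and it was not determined if they belong to the same gene.

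**Figure D4:**
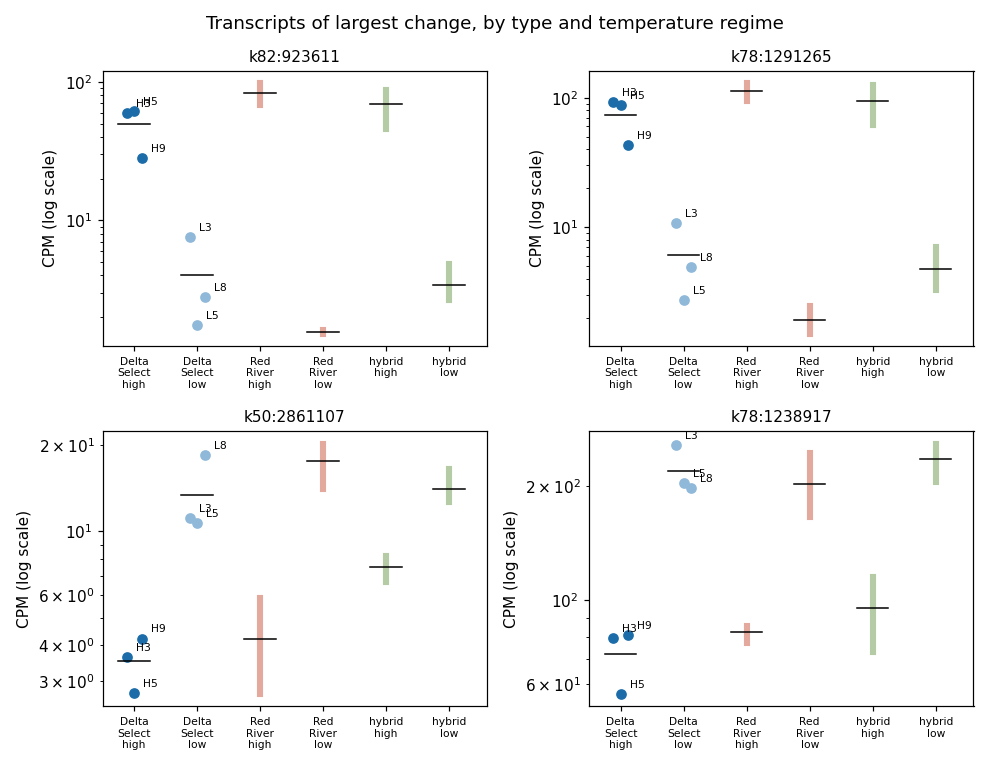
Level (CPM, log axis) of the 4 named transcripts by type and regime. Blue points are single Delta Select libraries, coloured bars span the lowest to the highest of 3 Red River or hybrid libraries, and black lines are group means. The regimes do not overlap in Delta Select fish in any panel, which was a condition for naming. The level of k82:923611 lies between 28.19 and 61.46 CPM at the high and between 1.746 and 7.529 CPM at the low regime.

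A few balanced transcripts were almost absent at the low regime and present in every tank at the high regime. In 4 of them every high-regime tank exceeded 2 CPM while the low-regime mean stayed below 0.5 CPM, and both fits called all 4. Over all tested transcripts 35 met this rule. The reverse pattern was met by 0 balanced transcripts and by 1 of all tested. Of the 4, the transcript of largest change had 6.651, 9.065 and 4.709 CPM in H3, H5 and H9, against 0.2468, 0.04108 and 0.0491 CPM in L3, L5 and L8. H5 was the highest and H9 the lowest high-regime tank in each of the 4. L3 was the highest low-regime tank in each. The ratio of summed reads for the largest, 1227 reads at the high against 16 at the low regime and corrected for depth, was 58.7 with a 95% exact interval of 36 to 103. For the other 3 the ratios were 37 (21.5 to 69.8), 22.7 (15.6 to 34.4) and 9.86 (7.57 to 13), and these intervals cover counting error only. All 4 also rose in Red River and in hybrid fish (edgeR). Their high-regime means were 3.473 to 6.808 CPM in Delta Select, 3.27 to 6.367 CPM in Red River and 2.904 to 4.972 CPM in hybrid fish. Similar high-regime levels in Red River and hybrid fish follow in part from the balanced rule. The low-regime means were 0.0156 to 0.1872 CPM in Red River and 0.2287 to 0.5393 CPM in hybrid fish. Each of the 4 was higher in hybrids there, so none was balanced at the low regime alone. L3 stood at 0.1851 to 0.7611 CPM, and reads of L3 and L5 enter the low-regime sums.

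Calls were found at all levels of expression, but at unequal rates. Small changes are harder to call on few reads, and how far this sets the rates and sizes by level was not tested. Below a mean of 1 CPM over the 18 libraries, 37 of 14201 balanced transcripts rose in both fits (0.261%, against 0.334% of all tested at that level) and 23 fell (0.162%, against 0.198%). Between 1 and 10 CPM, 244 of 16497 rose (1.48%, against 1.77%) and 146 fell (0.885%, against 0.998%). Calls were thus rarest among scarce transcripts. Between 10 and 100 CPM, 129 of 4178 rose (3.09%, against 3.06%) and 123 fell (2.94%, against 3.2%). Over 100 CPM, 16 of 717 rose (2.23%, against 1.93%) and 33 fell (4.6%, against 3.15%). Falls outnumbered rises in the top class of the balanced set, and rises outnumbered falls in the classes under it. The median log2 fold change of the rises was 1.79 in the lowest class and 1.3 in the highest, and that of the falls was -1.66 and -0.72.

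The 33 abundant falls took up a visible part of each library. Their summed level was 18460, 18360 and 16740 CPM in H3, H5 and H9, against 28850, 26420 and 33810 CPM in L3, L5 and L8. The high-regime tanks lay below all low-regime tanks, and L8 was the highest of them. The same 33 summed to between 19710 and 19890 CPM in Red River tanks at the high regime, against 22860 to 29250 CPM at the low regime. The most abundant of the 33 reached a mean of 6181 CPM at the high and 10180 CPM at the low regime in Delta Select fish. The 16 abundant rises summed to 3988, 4925 and 4591 CPM in H3, H5 and H9, against 2027, 1549 and 1461 CPM in L3, L5 and L8. Since these transcripts were chosen for being called, the sums describe their weight in the library and test nothing.

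The Delta Select response was set beside those of the other types, which share no library with it. Over the balanced set, 1431 transcripts rose and 961 fell in Red River fish (4.02% and 2.7%, against 3.75% and 2.34% of all tested). In hybrids 600 rose and 519 fell (1.69% and 1.46%, against 1.77% and 1.18% of all tested). Of the 751 balanced Delta Select calls made in both fits, 476 were also called in Red River fish, 417 in hybrids and 361 in both, each in the same direction, and 0 were called in the opposite direction. The share also called was higher for rises, with 329 of 426 in Red River and 264 of 426 in hybrid fish, than for falls, with 147 of 325 and 153 of 325. Whether that difference exceeds what the smaller size of the falls gives was not tested. The balanced rule, set on means over both regimes, also favours transcripts that respond alike in Red River and hybrid fish. Without regard to calls, 736 of the 751 had the same sign in Red River fish and 736 in hybrids. A further 2274 balanced transcripts were called with all libraries and not against L8 alone. Their median log2 fold change was 0.82 with all libraries and 0.76 against L8 alone for the 1383 higher ones. For the 891 lower ones it was -0.66 and -0.62, so the medians changed little. Both fits share H3, H5, H9 and L8, and such closeness follows in part from that. Of the 2274, 90.6% had the same sign in Red River and 91.2% in hybrid fish.

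The large rises in the balanced set were mostly common to the types. The balanced rule used means over both regimes, so a large rise confined to Red River or hybrid fish would tend to fail it. Calls in both of these types follow in part from that choice. Of the 75 rises over 4-fold in Delta Select fish, 68 were also called in Red River fish, 66 in hybrids and 65 in both. Their median log2 fold change was 2.5 in Delta Select (2.87 against L8 alone), 3.39 in Red River and 2.53 in hybrid fish. The choice in Delta Select fish favours large values there. In Red River fish 60 of the 75 changed by more than in Delta Select fish, and in hybrids 32 did. The median level of the 75 at the high regime was 6.547 CPM. Some of the 75 may belong to the same gene, which was not determined. Of the 8 falls over 4-fold, 5 were called in Red River fish and 3 in hybrids, with median log2 fold changes of -2.14 in Delta Select, -1.79 in Red River and -1.03 in hybrid fish. All 8 were scarce, with at most 5.926 CPM at the low regime.

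A set of 219 balanced transcripts was called in Delta Select fish in both fits and in neither other type. It held 87 rises and 132 falls. Since it was chosen for calls in Delta Select fish and for none in the others, a larger median in Delta Select fish follows from the choice. The 87 rises had median log2 fold changes of 0.89 in Delta Select, 0.37 in Red River and 0.36 in hybrid fish. The 132 falls had -0.8, -0.32 and -0.38 in the same order of types. Of the 219, 197 had the Delta Select sign in both other types. No transcript of this set was called for a difference between types with all libraries. The interaction of Delta Select with Red River called 0 balanced transcripts (0% of all tested; edgeR, smallest adjusted p = 0.118), and that with hybrids called 0 (0% of all tested; smallest adjusted p = 0.108). At an unadjusted p under 0.05 there were 2606 balanced transcripts (7.32%, against 11.6% of all tested) and 1626 (4.57%, against 10.7%). DESeq2 called 114 and 36 balanced transcripts for these interactions, and limma-voom called 0 and 0. For these tools, and with a single library left out, shares over all tested transcripts were not computed.

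Among single libraries left out, L8 moved the interaction counts most, and the test used moved them as well. Without L8 they were 141 for Red River and 103 for hybrids, when L3 and L5 made up the low-regime Delta Select group, and without H9 they were 10 and 0. Against L8 alone 13 balanced transcripts were called for each (34 and 45 over all tested, 0.0351% and 0.0465%), which makes 22 transcripts, with 4 in common. Of these 22, L8 was the highest of all 18 libraries in 12 and the lowest in 8. Where it was the highest, it exceeded the next library by 1.518 to 3.66 times. Since L8 was the only low-regime Delta Select library in that fit, such extreme places follow in part from the call. Of the 22, 0 were called for the Delta Select heat response with all libraries.

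The size of the response was also read on transcripts chosen in other fish. On the 1431 balanced transcripts that rose in Red River fish, the median log2 fold change was 0.75 in Delta Select fish, 0.76 against L8 alone, and 0.63 in hybrids. In Red River fish, where they were chosen, it was 1.07. On the 961 that fell in Red River fish, it was -0.49 in Delta Select fish, -0.51 against L8 alone, and -0.49 in hybrids, beside -0.84 in Red River fish. On the 600 that rose in hybrids, it was 1.03 in Delta Select fish, 1.09 against L8 alone, and 1.13 in the hybrids. The median in Red River fish on these 600 was larger than in the hybrids themselves. On the 519 that fell in hybrids, the median was -0.63 in Delta Select fish and -0.64 against L8 alone. In Red River fish it was -0.59, beside -0.82 in the hybrids. Each list favours large values in the type in which it was chosen. Delta Select fish changed in the same direction in 1369 of the 1431, 870 of the 961, 585 of the 600 and 505 of the 519.

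Single tanks were placed on a scale from the Red River low-regime mean, at 0, to the Red River high-regime mean, at 1. On the 1431 rises the median position was 0.879, 0.976 and 0.821 in H3, H5 and H9, against 0.271, 0.134 and 0.2 in L3, L5 and L8. Hybrid tanks lay at 0.807 to 0.852 at the high and 0.178 to 0.317 at the low regime. On the 961 falls the Delta Select tanks lay at 0.738, 0.849 and 0.825 at the high regime, against 0.277, 0.193 and 0.192 at the low regime, and the hybrid tanks at 0.733 to 0.791 and 0.137 to 0.205. The high- and low-regime tanks of Delta Select fish did not overlap on either list, and L3 was the low-regime tank nearest to the high regime on both. That Delta Select and hybrid tanks lie inside the Red River means follows in part from choosing the lists and the scale in Red River fish. The position of L8 was close to that of L5 on the falls and lay between those of L3 and L5 on the rises.

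**Figure D5:**
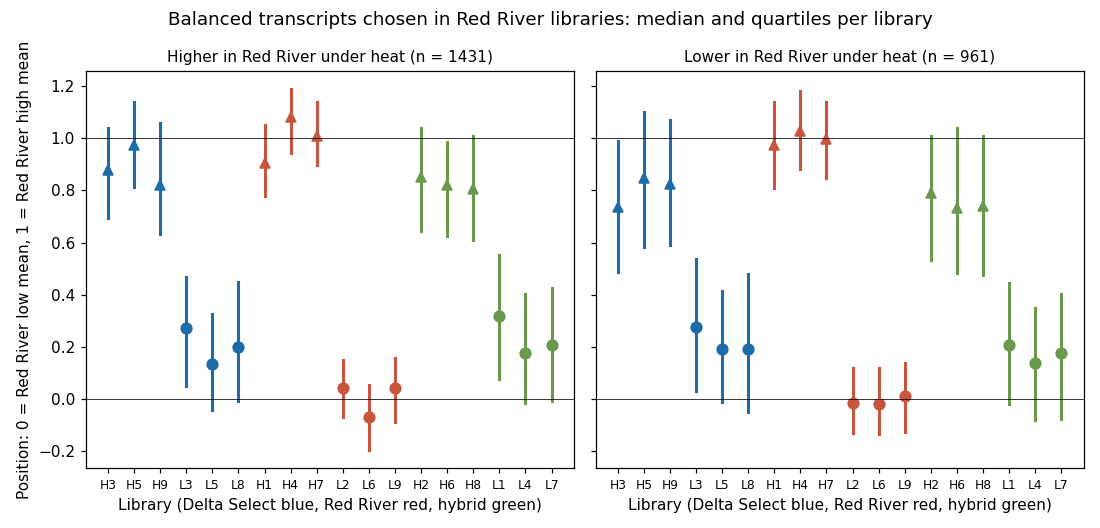
Median position (points) and quartiles (bars) of each library over balanced transcripts that rose (left) or fell (right) in Red River fish, on a scale from 0 for the Red River low-regime mean to 1 for the Red River high-regime mean. Blue is Delta Select, red Red River and green hybrid, with triangles for the high and circles for the low regime. Delta Select tanks lie at 0.821 to 0.976 at the high and at 0.134 to 0.271 at the low regime in the left panel.

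At the level of single libraries, 4961 balanced transcripts had all high-regime above all low-regime Delta Select tanks (13.9%, against 13.9% of all tested). In 3857 they lay below (10.8%, against 11.9% of all tested). Of the calls made in both fits, 421 of 426 rises and 310 of 325 falls were free of overlap. Such separation follows in large part from being called. The identifiers also carry the k-mer size of the assembly, from 50 to 94, with a median of 70 over the balanced transcripts tested and 78 over both the rises and the falls called in both fits.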

How the data were processed

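Liver RNA-seq was done on 18 tank pools. The deposited table holds raw read counts by the authors, 144746 transcripts by 18 libraries. A row that names no transcript held 24.2% to 25.6% of the reads and was left out. The deposited normalized table was not used. The submitters' processing notes name R 3.1.0, DESeq 1.12.1 and Bowtie2 2.1.0 without saying what each did. How transcripts were assembled, counted and assigned by strand is not given in the sources used here.

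Counts were fitted with edgeR 4.0.16 in R 4.3.3 (glmQLFit with robust set to true, TMM scaling, 1 mean per group over the 6 groups, filterByExpr at a count of 10 and a total of 15), and refitted without L3 and L5. In that fit the lone low-regime Delta Select library is taken to vary like the other groups. Standard errors were taken as the size of the log2 fold change over the square root of the F statistic. They are approximate, and for differences between types they can be too small. CPM are TMM-scaled, and logged CPM have a prior count of 2. P-values were adjusted by Benjamini and Hochberg over all transcripts tested. limma 3.58.1 (limma-voom) and DESeq2 1.42.0 were alternatives. Replicate pairs in the Delta Select groups differed by a chi-square of 20 to 48.5 per degree of freedom, so none agreed within sampling noise.

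The named transcripts are, in each direction, the 2 of largest change among balanced transcripts called in both fits at 3 or more in mean log2 CPM and with no overlap between regimes (174 rises and 166 falls were eligible). The balanced set, the lists and the tests were chosen with earlier results of these data known. Since identifiers carry no gene names, no pathway or marker list was applied.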

Additional observations from a re-analysis of the deposited data

How the results depend on the processing

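With DESeq2 size factors, without the 20 most abundant transcripts, without the filter on low counts, with a minimum mean of 50 reads and in limma-voom, the counts of balanced transcripts called stayed within 1.5 times the values reported. Which direction held more of the calls made in both fits depended on the setting, with 383 rises and 389 falls without the 20 most abundant transcripts. DESeq2 called 571 falls in both fits and 114 (Red River) and 36 (hybrid) interactions. Fitting only the Delta Select libraries gave 504 rises and 196 falls, and 71 and 33 in both fits. L8 alone gave 529 and 512, with 13 interactions for each type. Leaving out single libraries gave 893 to 1992 rises and 713 to 1508 falls, 208 to 455 and 203 to 423 in both fits, and 0 to 141 (Red River) and 0 to 103 (hybrid) interactions. The balanced window sets the number of transcripts counted: within 1.1-fold (16247 tested) 734 rose and 566 fell, with 175 and 148 in both fits, within 1.5-fold (56626 tested) 3074 and 2023, with 716 and 524, and with no restriction 5476 and 6956, with 1163 and 829. Asking for balance at the low regime as well gave 249 rises and 278 falls in both fits, so falls were then the more numerous. The cause of the other moves was not tested.

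The 4 named transcripts kept their direction and call under all 26 alternatives tried for each, with log2 fold changes of 3.27 to 4.46 (k82:923611), 3.23 to 4.27 (k78:1291265), -2.38 to -1.63 (k50:2861107) and -1.72 to -1.45 (k78:1238917). The fit against L8 alone is among these alternatives and was a condition for naming. The others share most libraries with the fits used for the choice, so keeping the call follows in part from it. No paired analysis was possible because the library codes number tanks within a regime across the types, and nothing ties a tank of the high regime to one of the low regime. With 3 tanks a group, and 1 at the low regime in the check, small changes may be missed.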
